A study of Mus musculus with 8 samples.

Results

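The genes described here are 10 that the amino acid branch of the integrated stress response is known to use, chosen by symbol: Atf4, Atf5, Ddit3, Trib3, Asns, Chac1, Psat1, Phgdh, Shmt2 and Sesn2. They are 10 of the 18138 gene symbols on the array and are carried by 18 of its 25697 probes, and 17 of those probes, covering all 10 genes, were detected. The RNA came from primary mouse aortic smooth muscle cells, grown out from explants of several aortas and transfected with either a scrambled control oligo (3 samples) or a moR-21 mimetic (3 samples). Both oligos were given at a final concentration of 5 nM, and RNA was taken 48 h later. There were 8 arrays for the 6 samples, since control sample 1 and moR-21 sample 3 had a repeat array (A and B). The labels do not say that the samples came from separate cultures, so the p-values measure the spread between these samples, which may be technical. The scrambled oligo stands in for untreated cells, and all cells received the transfection reagent. A short description attached to the samples calls the cells AoECs, whereas the source and cell type fields call them smooth muscle cells.

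When amino acids run short, or when unfolded protein collects in the endoplasmic reticulum, kinases phosphorylate the initiation factor eIF2. General translation then slows, while translation of the Atf4 mRNA increases. Atf4 protein, a basic leucine zipper transcription factor, binds DNA together with C/EBP family partners at a composite site (the C/EBP-ATF response element) and raises genes for amino acid synthesis, amino acid uptake and tRNA charging. It also raises regulators that shape the outcome of the stress, such as the transcription factor Ddit3 (CHOP) and the pseudokinase Trib3. Arrays measure mRNA, so the translational step that controls Atf4 is not seen in these data.

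The mimetic copies moR-21, a small RNA cut from the primary transcript of miR-21, directly 5′ of the mature miRNA. The stretch of the Mir21a hairpin that precedes miR-21 (RefSeq, GRCm38.p6, chr11:86584142-86584158, minus strand) is shown with GUACC in capitals, the bases common to the 5′-most seed windows of moR-21, where the study placed its mutations, and miR-21 itself (chr11:86584120-86584141) with its seed, bases 2 to 8, in capitals. The stretch begins where the annotated hairpin begins, which need not be the first base of moR-21. Positions counted in it are therefore not positions in moR-21. The sequence of the mimetic itself was not used here.

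5′ flank of miR-21: uGUACCaccuugucgga

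mmu-miR-21a-5p: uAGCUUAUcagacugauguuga

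The DNA element of the Atf4 pathway was looked for in the promoters of the 10 genes, since it is the feature that is known to tie such genes together. The pattern TGATGNAAN was searched on both strands in the 300 bases around each RefSeq gene start (250 before and 50 after; GRCm38.p6). It was found in 3 of the 10 genes, Trib3, Asns and Chac1, and in 1215 of the 27025 genes with a promoter in the table (4.50%). Of promoters, 3 of the 12 of these genes and 1299 of all 32851 (3.95%) held it. The match is in capitals below, and on the opposite strand for Trib3 and Chac1. In Asns it ended 15 bases before the gene start, in Chac1 186 bases before it, and in Trib3 it began 13 bases after it, so that only 30 bases are shown there. A match describes these letters and does not show that a factor binds, and the windows of the other 7 genes simply lack them.

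Asns, chr6:7693210-7693299, minus strand: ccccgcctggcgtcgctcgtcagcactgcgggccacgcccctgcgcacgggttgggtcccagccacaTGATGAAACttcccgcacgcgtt

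Chac1, chr2:119351003-119351092, plus strand: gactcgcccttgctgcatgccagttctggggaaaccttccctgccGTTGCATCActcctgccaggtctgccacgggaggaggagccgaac

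Trib3, chr2:152344028-152344057, minus strand: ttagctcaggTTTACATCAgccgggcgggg

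The stress regulators Atf4, Atf5 and Trib3, the asparagine enzyme Asns and the glutathione-degrading enzyme Chac1 were lower after the moR-21 mimetic, while the serine synthesis enzyme Psat1 was higher by 19.5%. Trib3 fell by 22.8%, Atf5 fell by 22.6%, Atf4 fell by 16.3%, Chac1 fell by 15.5% and Asns fell by 13.6%. These 6 genes passed an adjusted p under 0.05 in limma, a linear model with moderated variances fitted to log2 signals of all 11651 detected probes. Ddit3, Phgdh, Shmt2 and Sesn2 did not pass it at their brightest probes, by which each gene is read, although the dimmer Ddit3 probe did. All of the differences were small. The percentages come from signals to which no background correction was applied here. With normexp background correction the log2 fold changes were −0.52 for Trib3, −0.43 for Atf5, −0.42 for Chac1, −0.29 for Atf4, −0.23 for Asns and 0.28 for Psat1. At the cutoffs of the study, a change of more than 1.3-fold (0.3785 on the log2 scale) with an adjusted p under 0.002, limma called 0 of the 10 genes, with 6 lower and 2 higher at an unadjusted p under 0.05, where 21.1% and 23.4% of all detected genes were. A probe is named called below only at these stricter cutoffs.

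Read at the brightest detected probe of each gene, 5 of the 10 genes were lower and 1 was higher at an adjusted p under 0.05. Over all 8727 detected gene symbols read in the same way, 17.3% were lower and 18.8% higher at this threshold, and at the cutoffs of the study 4.38% were called lower and 3.41% higher. The median log2 fold change was −0.19 over the 10 genes and 0.01 over all detected genes. In 5 of the 10 genes all 3 moR-21 samples lay below all 3 control samples, and in 2 all lay above. Over all detected genes these shares were 21.9% and 24.4%. At an adjusted p under 0.05 and by overlap, the share lower was thus larger among the 10 genes than over all detected genes. At the cutoffs of the study 0 of the 10 were called, and 10 genes are too few to tell this from 4.38%. The 10 genes were picked with results known, so these differences were not tested.

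**Figure D1:**
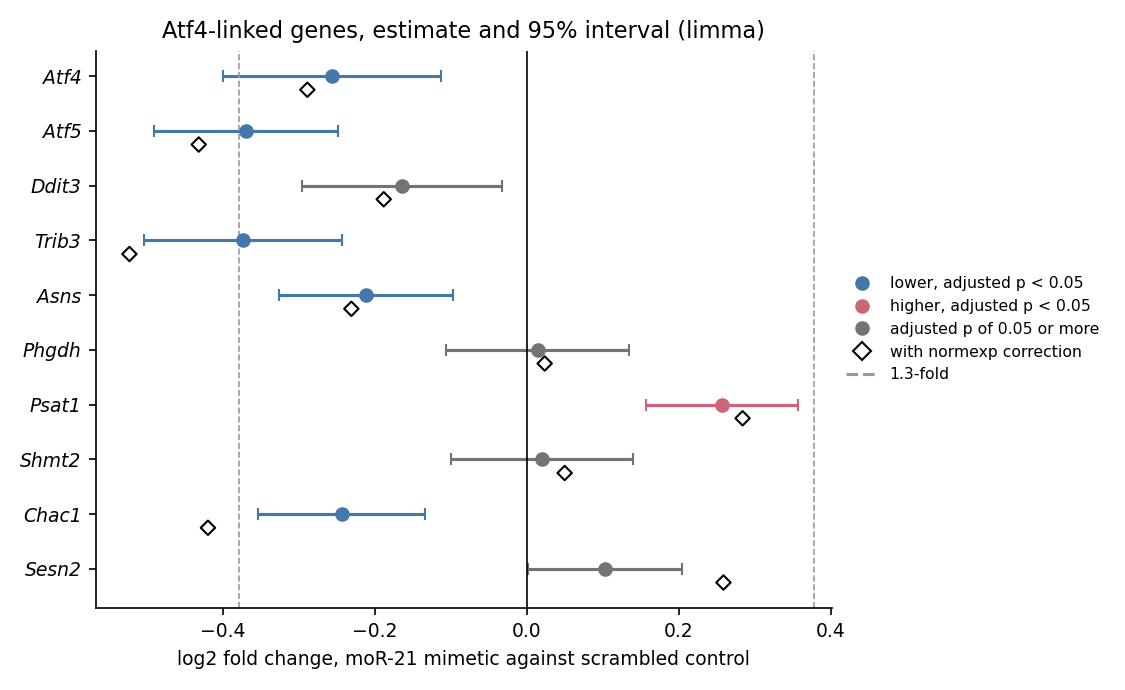
Log2 fold change (horizontal axis) of the brightest probe of each of the 10 genes, moR-21 mimetic against scrambled control, with its 95% confidence interval from limma (3 samples against 3). Blue marks genes lower and red genes higher at an adjusted p under 0.05, open diamonds give the estimate after normexp background correction, and the dashed lines stand at a 1.3-fold change. Atf5 (−0.37) and Trib3 (−0.37) lie just inside the dashed line, and Psat1 (0.26) is the only red point.

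Among the regulators, Atf5 and Trib3 showed the largest differences. Atf5 (chr7:44812256-44816658, GRCm38.p6), a transcription factor closely related to Atf4, had log2 signals of 9.27, 9.39 and 9.40 in control samples 1 to 3 and of 8.89, 9.01 and 9.06 in moR-21 samples 1 to 3. The lowest control sample thus stood above the highest moR-21 sample, and the groups did not overlap. The deposited, non-normalized intensities of its probe ran from 617 to 694 on the 4 control arrays and from 482 to 573 on the 4 moR-21 arrays. The log2 fold change was −0.37 (standard error 0.056, 95% interval −0.49 to −0.25, limma adjusted p = 1.68e-04), a fall of 1.29-fold, just under the fold-change cutoff.

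Trib3 (chr2:152337425-152344060), a pseudokinase that Ddit3 and Atf4 induce and that in turn restrains Atf4, had log2 signals of 8.39, 8.44 and 8.32 in the control samples and of 7.93, 8.15 and 7.96 in the moR-21 samples. MoR-21 sample 2 was the highest of its group, yet below every control sample. The log2 fold change was −0.37 (standard error 0.061, 95% interval −0.50 to −0.24, limma adjusted p = 2.87e-04). The fold cutoff fell inside the intervals of both genes, and among the 16 alternative fits Atf5 was called in 6 and Trib3 in 4. Leaving out control sample 1 (log2 fold change −0.41), moR-21 sample 2 (−0.38) or moR-21 sample 3 (−0.41) gave Atf5 the call, and leaving out control sample 3 (−0.41) or moR-21 sample 2 (−0.44) gave it to Trib3.

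Atf4 itself (chr15:80255184-80257545) was lower by a smaller amount. Its log2 signals were 9.51, 9.62 and 9.82 in the control samples and 9.39, 9.43 and 9.36 in the moR-21 samples. Control sample 3 stood well above its group. With repeat arrays averaged, the moR-21 samples lay close together below all controls. By single array the treatments overlapped, since control array 1B (9.442) lay below moR-21 array 3B (9.451), while moR-21 array 3A was at 9.266. The log2 fold change was −0.26 (standard error 0.067, 95% interval −0.40 to −0.11, limma adjusted p = 0.00831). Without control sample 3 it was −0.17, and with array B alone of the repeated samples it was −0.20 (limma adjusted p = 0.0610), the only alternative among the 16 that took Atf4 past 0.05.

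Ddit3 (chr10:127290793-127296291), the transcription factor CHOP, which is linked to cell death under lasting stress, did not pass at its brightest probe. This probe had log2 signals of 9.41, 9.49 and 9.42 in the control samples and of 9.23, 9.42 and 9.17 in the moR-21 samples. MoR-21 sample 2 lay within the control range, so the groups overlapped (two-sided exact permutation p = 0.3, where 0.1 is the smallest that 3 samples against 3 can give). Ddit3 differed by −0.16 on the log2 scale (standard error 0.061, 95% interval −0.30 to −0.03, limma adjusted p = 0.0531). Without moR-21 sample 2 it was −0.24 (limma adjusted p = 0.00390), and over the 16 alternatives, of which 6 passed 0.05, the adjusted p ran from 0.00390 to 0.221.

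**Figure D2:**
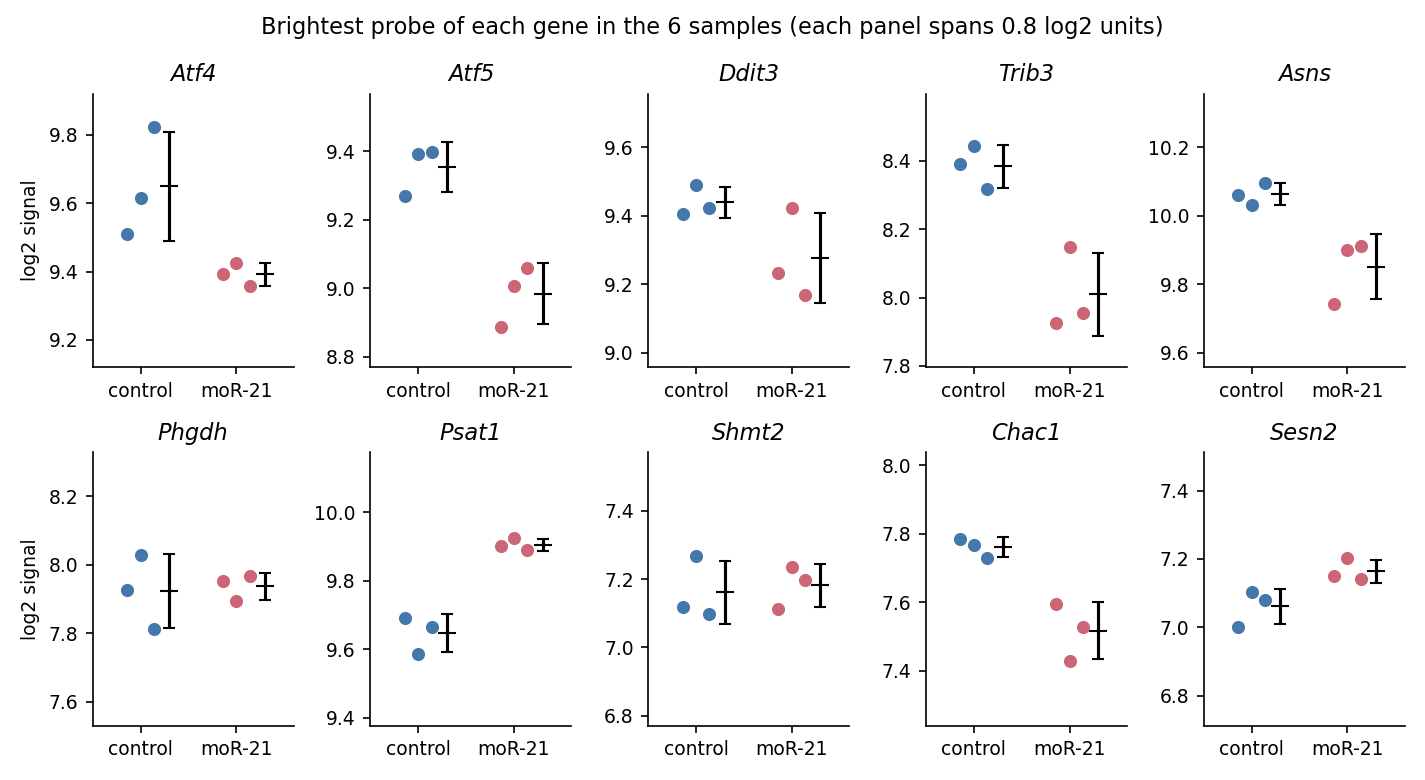
Log2 signal of the brightest probe of each gene in the control samples (blue) and moR-21 samples (red), 1 point for each of the 6 samples in the order of the replicate numbers, with black bars for the mean and SD (n = 3). Every panel spans 0.8 log2 units around its own mean, because brightness cannot be compared between probes. Atf4, Atf5, Trib3, Asns and Chac1 lie wholly lower in the moR-21 samples, Psat1 and Sesn2 wholly higher, and Ddit3, Phgdh and Shmt2 overlap.

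The enzymes of amino acid synthesis did not move in a single direction. Asns (chr6:7675165-7693209), which makes asparagine from aspartate and is a textbook Atf4 target, had log2 signals of 10.06, 10.03 and 10.10 in the control samples and of 9.74, 9.90 and 9.91 in the moR-21 samples. All moR-21 samples lay below the controls, sample 1 the furthest. Asns fell by 0.21 on the log2 scale (standard error 0.053, 95% interval −0.33 to −0.10, limma adjusted p = 0.00696). After normexp background correction it was −0.23, with a limma adjusted p of 0.0541, and in the other 15 alternatives the adjusted p stayed under 0.05.

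Psat1 (chr19:15905123-15925059), the aminotransferase of the serine synthesis pathway, went the other way. Its log2 signals were 9.69, 9.59 and 9.67 in the control samples and 9.90, 9.92 and 9.89 in the moR-21 samples. The moR-21 samples formed a tight group (SD 0.017) above every control sample. The deposited, non-normalized intensities did overlap, from 700 to 988 on the control arrays and from 897 to 981 on the moR-21 arrays. Control array 1B was the highest of all. Psat1 differed by 0.26 on the log2 scale (standard error 0.047, 95% interval 0.16 to 0.36, limma adjusted p = 6.97e-04), and it stayed between 0.23 and 0.28 over the 16 alternatives.

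Phgdh (chr3:98313171-98339969), which catalyses the step that commits 3-phosphoglycerate to serine, had control values of 7.93, 8.03 and 7.81 and moR-21 values of 7.95, 7.89 and 7.97 on the log2 scale. The moR-21 samples lay inside the control range. Phgdh differed by 0.01 on the log2 scale (standard error 0.056, 95% interval −0.11 to 0.13, limma adjusted p = 0.880). Shmt2 (chr10:127517123-127522444), the mitochondrial enzyme that splits serine into glycine and a one-carbon unit, was similar, with 7.12, 7.27 and 7.10 in the control samples and 7.11, 7.24 and 7.20 in the moR-21 samples. Its log2 fold change was 0.02 (standard error 0.056, 95% interval −0.10 to 0.14, limma adjusted p = 0.829). Together the intervals of both genes span −0.11 to 0.14.

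Chac1 (chr2:119351242-119354326), which degrades glutathione and is induced downstream of Atf4 and Atf3, had log2 signals of 7.79, 7.77 and 7.73 in the control samples and of 7.59, 7.43 and 7.53 in the moR-21 samples. The controls were tight (SD 0.028) and every moR-21 sample lay below them. Chac1 fell by 0.24 on the log2 scale (standard error 0.051, 95% interval −0.35 to −0.13, limma adjusted p = 0.00203), so that it lay under the fold cutoff and just over the adjusted p of 0.002. Its probe was dim, with deposited intensities between 168 and 251 where the median probe read 102 to 109, and after normexp its log2 fold change was −0.42.

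Sesn2 (chr4:132492804-132510456) encodes Sestrin 2, a leucine-binding inhibitor of mTORC1 signalling that stress also induces through p53. Its log2 signals were 7.00, 7.10 and 7.08 in the control samples and 7.15, 7.20 and 7.14 in the moR-21 samples. The moR-21 samples all lay above the controls, by a narrow margin. The log2 fold change of 0.10 did not pass (standard error 0.047, 95% interval 0.0014 to 0.20, limma adjusted p = 0.113). This probe was also near background, at 127 to 145, and after normexp the difference was 0.26.

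Genes with several detected probes had the same sign at each of them. The 12 detected probes of Atf4, Atf5, Ddit3, Trib3, Asns and Chac1 all had a negative log2 fold change, and the 5 of Phgdh, Psat1, Shmt2 and Sesn2 a positive one. The sizes differed between probes of a gene, however. The dimmer probe of Atf4 gave −0.19 (limma adjusted p = 0.0186). The dimmer probe of Ddit3, detected on all 8 arrays, gave −0.17 (limma adjusted p = 0.0483), with log2 signals of 8.01, 8.20 and 8.02 in the control samples and of 7.79, 7.93 and 7.99 in the moR-21 samples. Unlike at the brighter Ddit3 probe, the groups of samples did not overlap there, by a narrow margin. By single array they did, with moR-21 array 3A (8.001) above control array 1B (7.997). A second probe of Asns, detected on all 8 arrays, gave only −0.08 (limma adjusted p = 0.288), against −0.21 at the brightest, and its moR-21 samples overlapped the controls.

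The dimmest probes carried little. The dimmer probes of Trib3 gave −0.13 and −0.06 and were detected on 6 and 2 arrays. The dimmest probe of Asns gave −0.08 and was detected on 1 control array. The dimmest probes of Trib3 and Asns passed the detection filter only through control arrays, so their direction is no support. The second probe of Shmt2 gave 0.07, with detection on 2 of 4 control arrays and on all 4 moR-21 arrays. The second probe of Sesn2 was detected on 0 arrays and was not tested.

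**Figure D3:**
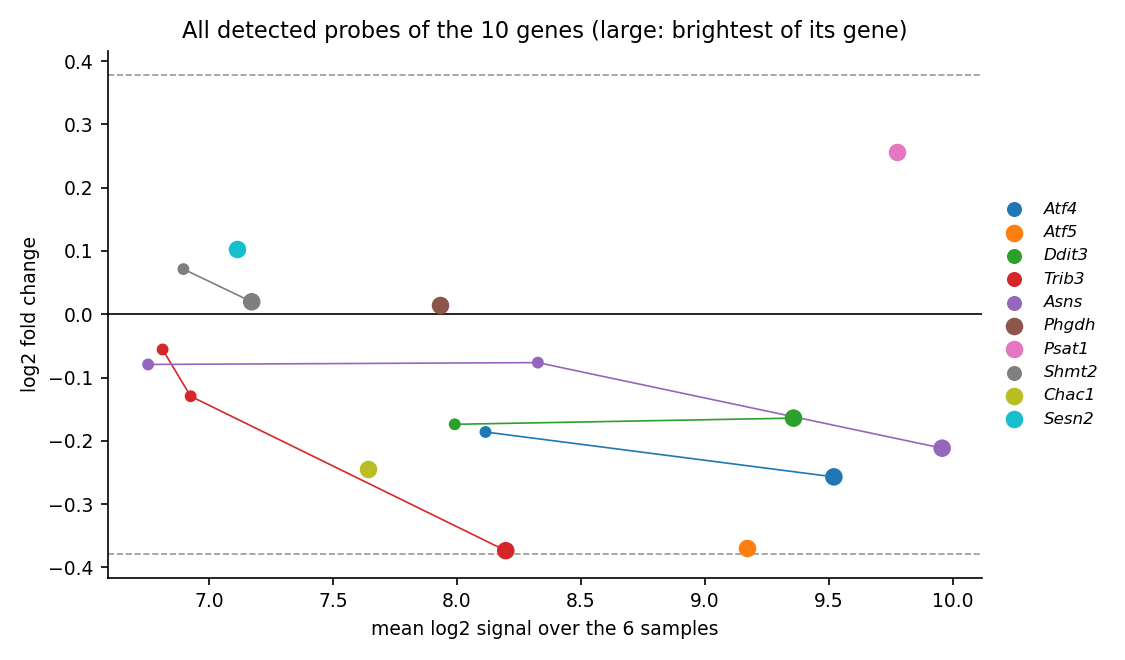
Log2 fold change of the 17 detected probes of the 10 genes (vertical axis) against their mean log2 signal over the 6 samples (horizontal axis). Colours mark genes, lines join probes of a gene, large points are the brightest probes, and the dashed lines stand at a 1.3-fold change. All probes of Atf4, Ddit3, Trib3 and Asns lie below 0, and those of Trib3 run from −0.06 at the dimmest to −0.37 at the brightest.

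The titles mark the repeat arrays as replicates A and B of a sample and do not say whether these share one RNA. If they do, their differences give the technical error of these values. The log2 signals of the brightest probes differed between control arrays 1A and 1B by 0.13 for Atf4, 0.15 for Psat1 and 0.02 for Atf5. Between moR-21 arrays 3A and 3B they differed by 0.18 for Atf4, 0.14 for Atf5 and 0.02 for Trib3. These are differences between single arrays, whereas the differences between treatments, such as −0.26 for Atf4 and −0.37 for Trib3, are between means of 3 samples. Over all detected probes the SD of the difference between repeat arrays was 0.0914 and 0.103, and between arrays of different samples of the same treatment it reached 0.105 in the control group and 0.119 in the moR-21 group. Samples of a treatment therefore differed from each other hardly more than repeat arrays did.

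Over the 6 samples, the pattern of the brightest Atf4 probe was most closely matched by Etfa (Pearson r = 0.996), Elovl1 (0.991), Rxrb (0.988), H3f3a (0.982) and Ddr1 (0.981), chosen among 9409 probes detected on all 8 arrays. These points share the difference between the treatments and the same arrays, and with so many probes and 6 points such values are a description. None of the other 9 genes was among these 5.

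The other genes of the pathway were taken from 5 lists with 66 symbols. The array carried 60 of them, and 46 were detected. Of these 46 genes, limma called 4 lower, namely Eif2ak2, Herpud1, Xbp1 and Iars, and 1 higher, Gdf15. Over all detected genes 4.38% were called lower and 3.41% higher, and the difference from these shares was not tested. At an adjusted p under 0.05, 9 of the 46 were lower and 6 were higher. The median log2 fold change of the 46 genes was −0.04. All detected genes gave 17.3% and 18.8% at this threshold, so the share lower lay near the background and the share higher below it.

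Upstream, 2 of the 4 kinases that phosphorylate eIF2 were measured. Eif2ak2 (PKR), the kinase that senses double-stranded RNA and that interferon induces, had the largest difference of all 46 genes. Its log2 signals were 11.04, 11.01 and 10.93 in the control samples and 10.26, 10.15 and 10.27 in the moR-21 samples, well apart. The log2 fold change was −0.77 (standard error 0.051, limma adjusted p = 7.41e-08), and it was called in all 16 alternatives. Eif2ak1, the heme-regulated kinase, gave −0.06 (limma adjusted p = 0.509). Eif2ak4 (GCN2), which senses uncharged tRNA, was not detected, and Eif2ak3 (PERK) had no probe under that symbol. Ppp1r15b, a phosphatase subunit that reverses the phosphorylation, gave −0.11, and Eif2b4, a subunit of the exchange factor that phosphorylated eIF2 blocks, 0.01, and neither passed.

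Among the partners and stress targets, 12 of 15 genes were detected. Herpud1, which acts in degradation of proteins at the endoplasmic reticulum, gave −0.53 (limma adjusted p = 8.95e-07), with a second probe also called at −0.44. Xbp1, the transcription factor of the Ire1 branch of the unfolded protein response, gave −0.50 (limma adjusted p = 2.11e-05), and lost the call under normexp in 1 of 16 alternatives at an adjusted p of 0.00206. Both genes also respond to other branches of that response. Gdf15, a secreted stress cytokine, was higher by 0.39 (limma adjusted p = 3.98e-04), close to the cutoff, and kept the call in 8 of 16 alternatives. It lost the call without control sample 1, without control sample 2 and without moR-21 sample 2, and its log2 fold change ranged from 0.30 to 0.54 over the alternatives. Atf3 and Fgf21, which are also known targets, were not detected. Jdp2 (−0.38) and Cebpb (−0.13) were lower and Vldlr (0.34) and Eif4ebp1 (0.19) higher at an adjusted p under 0.05, with no call here, although Jdp2 was called in 6 of the 16 alternatives. These 4 genes, and the uncalled ones in the next paragraph, are named because a probe of theirs passed this threshold, seen after their values. The 2 dimmer probes of Vldlr were called, at 0.50 and 0.38.

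Against 4.38% of all detected genes, 1 of the 17 detected aminoacyl-tRNA synthetases, which charge tRNAs with amino acids, was called lower. This was Iars (isoleucine), at −0.40 (limma adjusted p = 2.95e-05), which lost the call only without control sample 1, at a log2 fold change of −0.36. A dimmer probe of Iars gave −0.26, not called. At an adjusted p under 0.05, Aars (−0.37, called in 6 of the 16 alternatives) and Gars (−0.16) were also lower and Qars (0.12) was higher. The other 13 synthetases did not pass. Among 6 detected amino acid transporters, 0 were called by limma. Slc7a3, a carrier of cationic amino acids, gave −0.33 and Slc1a4, which carries neutral amino acids such as serine, 0.28, each with an adjusted p under 0.05 but under the fold cutoff. After normexp they gave −0.82, which was called, and 0.54, which was not. The Slc7a3 probe was dim, with mean log2 signals of 7.30 in the control samples and 6.97 in the moR-21 samples. Slc38a2 did not pass 0.05 at its brightest probe (−0.11, limma adjusted p = 0.0686). Its dimmer probes gave −0.22 (limma adjusted p = 0.00368) and 0.003 (limma adjusted p = 0.974). Of 7 detected enzymes of serine, one-carbon and proline metabolism, limma called 0. With 6 and 7 genes, 0 called cannot be told from the shares over all detected genes (4.38% lower, 3.41% higher). Shmt1 alone of these enzymes passed 0.05, with 0.22, or 0.68 after normexp. Its probe was near background, with mean log2 signals of 6.84 in the control samples and 7.06 in the moR-21 samples.

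**Figure D4:**
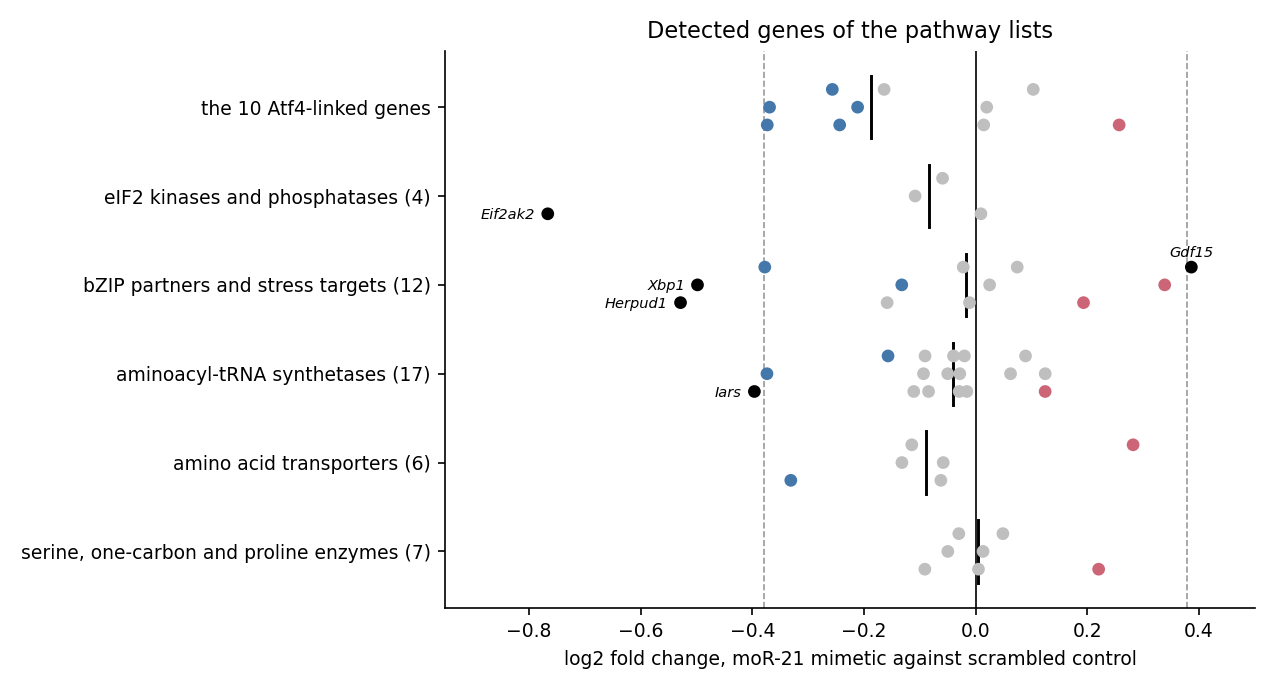
Log2 fold change (horizontal axis) of the 10 Atf4-linked genes and of the 46 detected genes of the 5 pathway lists, with the number detected in brackets. Black points with names met the cutoffs of the study (1.3-fold, adjusted p under 0.002), blue and red points were lower and higher at an adjusted p under 0.05, grey points did not pass, vertical bars are medians and dashed lines mark a 1.3-fold change. The median of the 10 genes is −0.19, and those of the other lists lie between −0.09 and 0.00.

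Bulk RNA cannot tell fewer cells of a type from less RNA per cell, so markers of the cell types that such a culture could hold are given beside these results. Of 8 smooth muscle markers 5 were detected, and they did not move together. Acta2 was called higher (0.40), Tagln was higher (0.20) and Des lower (−0.38) at an adjusted p under 0.05, Lmod1 (0.05) and Smtn (−0.05) did not pass, and Myh11, Cnn1 and Myocd were not detected. Tagln and Lmod1 were near background, with control means of 6.74 and 6.79 on the log2 scale, and so was Des in the moR-21 samples (6.91). The same holds for Vwf and Csf1r below, with control means of 6.89 and 6.87. Only Vwf of 7 endothelial markers was detected, so the cells did not show the endothelial profile that AoEC would imply. The summed signal of the detected smooth muscle markers was 9953 to 10335 in control samples and 12700.1 to 13552 in moR-21 samples. Acta2 alone made up 91.9% to 94.4% of it, although brightness cannot be compared between probes, so the sums mostly follow the brightest probe. For 4 of 5 fibroblast markers the sum was 13796 to 14368 and 11199 to 12438, with Lum called lower (−0.56). For 2 of 6 mesothelial markers it was 771 to 779.6 and 402 to 416, with Upk3b called lower (−1.24). For 2 of 6 macrophage markers it was 274 to 279 and 333 to 343, with Lyz2 called higher (0.48), Csf1r at −0.01, and Ptprc, Emr1 and Cd68 not detected. For Vwf it was 117 to 120.2 and 118 to 127. The part of these shifts in the changes of the 10 genes was not tested.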

How the data were processed

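The authors deposited non-normalized probe intensities and detection p-values for 8 arrays, with background correction not given in the sources used here. For their own analysis the authors used quantile normalized values from Beadstudio with lumi and limma. The deposited detection p-value compares a probe with negative control beads. All columns were assigned to a sample by name, and 0 were left over. Here the 8 arrays were brought to a common distribution (quantile), put on the log2 scale, and averaged where a sample had a repeat. Probes with a detection p under 0.01 on at least 1 array entered lmFit and eBayes (limma 3.58.1, R 4.3.3), with no covariate and Benjamini-Hochberg adjustment over all of them. A gene's value is that of its brightest detected probe. Signals of different genes were added together only in the sums of cell type markers. The number of samples limits the precision.

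The named genes are the 10 genes, the called genes of the pathway lists, the eIF2 kinases and the 5 genes most like Atf4. Other pathway genes are named outside this rule, after their values were seen, and so are the cell type markers. The genes and lists were chosen with earlier results of these data known. Alternatives were normexp (offset 16, negative controls inferred from detection p-values), median scaling, cyclic loess, stricter and no detection filters, array A or B alone, duplicateCorrelation, a block for the replicate number, trended and robust eBayes, looser cutoffs and leaving out each sample. The fit was first tested on simulated data with changes larger than any seen in the 10 genes, so that test says nothing about differences this small. Gene positions, promoters and miRNA sequences come from RefSeq (GRCm38.p6). All 10 genes matched by symbol, while the array table gives no coordinates. Motif searches and figures used Python 3.11.15, pandas 2.3.3 and matplotlib 3.10.9.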

Additional observations from a re-analysis of the deposited data

How the results depend on the processing

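Of the 10 genes, the number called lower at the cutoffs of the study was 1 under median scaling (Atf5), 2 under cyclic loess (Atf5 and Trib3), 1 with array B alone (Atf5), 1 with duplicateCorrelation (Trib3) and 0 to 2 when a sample was left out. It was 0 under the other alternatives, and 0 were called higher in any. With no fold cutoff and an adjusted p under 0.05, 5 of the 10 genes were lower and 1 higher, 9 and 6 of the pathway genes, and 1860 and 2083 of all probes. Of the pathway genes, 6 were called lower under median scaling, cyclic loess and array B alone, and 4 to 6 when a sample was left out. The number called higher was 0 under normexp, median scaling, no detection filter, array A alone and duplicateCorrelation, and 0 to 1 when a sample was left out. The median log2 fold change of the 10 genes stayed between −0.22 and −0.15.

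Phgdh turned to −0.0089 with array B alone. When a sample was left out, Phgdh ranged from −0.040 to 0.067 and Shmt2 from −0.012 to 0.073, so neither has a settled direction. With the replicate number as a block, 450 probes were called lower and 365 higher, with 0 and 0 of the 10 genes, 4 and 1 of the pathway genes and a median of −0.19. Deviations of same-numbered samples correlated at 0.19, 0.04 and 0.06, and those of differently numbered samples at −0.13 to 0.07. Whether same-numbered samples belong together was not tested. Signals near background limit Chac1, Sesn2 and Shmt2 most.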
